A study of Rattus norvegicus with 6 samples.

Results

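The cell cycle and DNA replication genes of rat liver were read from whole-genome microarrays of hypercholesterolemic rats given a probiotic or plain saline. The set was 39 genes that control or carry out cell division. A member was any probe set (a group of short probes against 1 transcript) that the platform annotation pairs with exactly 1 of their symbols. In this way 38 of the 39 genes were found, on 54 probe sets, among 14217 genes with 1 symbol on the array. The missing gene was Rrm2, a subunit of ribonucleotide reductase, whose probe sets carry several symbols. By role the set held 14 G1 regulators, 9 genes of DNA replication and 15 genes of mitosis. Of the 38 genes, 11 had several probe sets, which share a target and are not independent measurements.

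All rats ate a fat-rich diet for 30 d to raise their cholesterol. They kept that diet for the next 30 d and received 1 ml of saline by gavage each day. In the probiotic group the saline carried Lactobacillus casei Zhang, and in the high-fat group, the control, it carried nothing. Strain, sex and age of the rats are not given in the labels. Each group had 3 liver samples with 1 array each, chosen at random per the series design, and all members were compared as probiotic minus high-fat. The labels do not say that each sample came from a separate rat, so the p-values measure the spread between these samples.

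Most hepatocytes of an adult liver rest outside the cell cycle and can return to it after injury. D-type cyclins with CDK4 or CDK6 begin the return by phosphorylating the retinoblastoma protein, which frees E2F factors to switch on the genes of DNA replication. Cyclin E with CDK2, then cyclin A and cyclin B with CDK1, drive S phase and mitosis, and inhibitors such as p21 (Cdkn1a) and p27 (Cdkn1b) hold the kinases back. In a bulk sample, fewer cycling cells and less RNA per cell cannot be told apart.

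Levels are given as log2(signal + 16) after quantile normalization, so 1 unit is a 2-fold step, and the floor of the scale is 4. Probe sets with a mean of 6.30 or more, the 40th percentile of all probe sets, were tested. This left 33 of the 54 member probe sets, and 25 of the 38 genes had at least 1 of them. The nearest member below was a Cdkn1b probe set at 6.16, and the nearest above was a Ccnb1 probe set at 6.35. By role, 11 of 14 G1 regulators, 7 of 9 replication genes and 7 of 15 mitotic genes had a probe set above the filter. The other 21 probe sets were too dim to be tested, and their low values are given as descriptions.

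The arrays correlated at 0.885 to 0.959 over the probe sets tested, and their median deposited signal lay between 90.05 and 146.9. All 7 hepatocyte markers measured were above the filter, and albumin (Alb) differed by -0.01 between groups. For Actb, control probe sets read the transcript at both ends, and the excess of the 3' over the 5' end, which grows as RNA is degraded, was 2.08, 3.07 and 2.39 log2 units in probiotic samples 1, 2 and 3 and 1.95, 1.48 and 1.97 in the high-fat samples. The groups did not overlap in this Actb gap (exact two-sided permutation p = 0.1, the smallest that 3 against 3 allows). Differences refitted with the gap as a covariate are given for several members. Because the gap went with the group, such a fit cannot separate the part of the gap from that of the treatment. The refitted values show how far a difference depends on the setting and are not differences corrected for RNA quality. Probiotic sample 2 also had the highest level of all 11 immediate early genes measured, which respond within minutes to stimulation.

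The probiotic and high-fat livers did not differ in cell cycle genes beyond the adjusted threshold. With limma, 0 of the 33 member probe sets tested passed an adjusted p of 0.05, against 0.0215% of the 18625 probe sets tested on the whole array, and the lowest adjusted p of a member was 0.726. At an unadjusted p under 0.05 there were 3 member probe sets, or 9.09%, against 6.85% of all probe sets tested. They belonged to cyclin D1 (Ccnd1) and p21 (Cdkn1a), which were higher, and to the CDK4 and CDK6 inhibitor p18 (Cdkn2c), which was lower. Leaving out probiotic sample 1 gave 6 such members, leaving out high-fat sample 1 gave 0, and fitting the variance without an intensity trend gave 1. The groups did not overlap for 8 of the 54 member probe sets, or 14.8%, against 11.6% of all probe sets other than controls. By direction, 3 of the 54 were higher and 5 of the 54 lower in the probiotic group, against 5.55% and 6.03% of all probe sets. The shares of 9.09% and 14.8% lie near the background of the array.

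**Figure D1:**
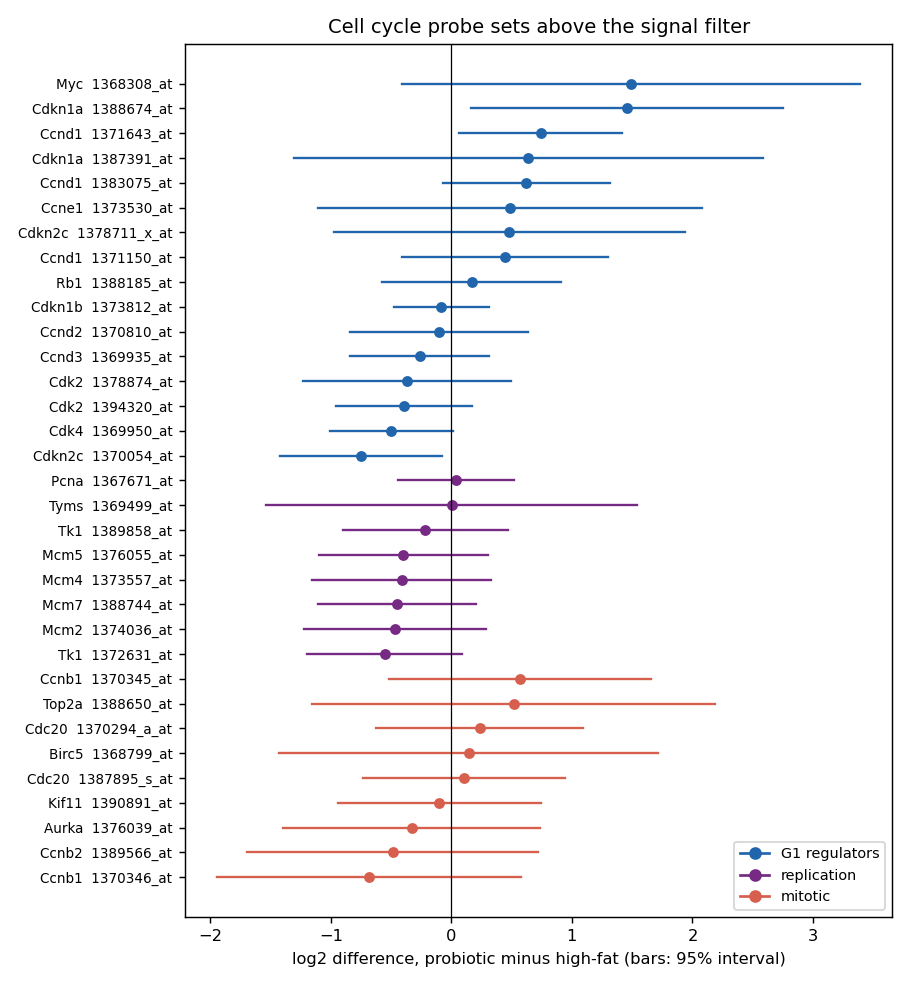
Log2 difference, probiotic minus high-fat, with its 95% interval for each of the 33 member probe sets above the signal filter, coloured by role. The intervals of 1 probe set each of Ccnd1, Cdkn1a and Cdkn2c exclude 0 before adjustment, and those of the other 30 include it.

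The 3 roles were described as groups by counts and medians, with no test. By the brightest probe set of each gene, dim ones included, 19 members were higher and 19 lower in the probiotic group. Of all genes, 50.4% were higher and 49.6% lower. The median difference was 0.04 for the G1 regulators (7 higher, 7 lower), -0.40 for the replication genes (4 higher, 5 lower) and 0.00 for the mitotic genes (8 higher, 7 lower). The median over all 14217 genes was 0.00. With 1 sample left out the medians ran from -0.07 to 0.18, from -0.44 to -0.16 and from -0.31 to 0.15 in the same order. The replication median was -0.16 without high-fat sample 3 and -0.25 without probiotic sample 1, and the mitotic median was -0.31 without high-fat sample 1.

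Cyclin D1, the cyclin that carries growth signals into G1, was the only member with 3 probe sets above the filter, and all 3 gave higher means in the probiotic group. On the brightest, the log2 levels were 10.68, 11.27 and 11.70 in probiotic samples 1, 2 and 3 and 10.63, 10.12 and 11.04 in the high-fat samples. Probiotic samples 2 and 3 lay above every high-fat sample, and probiotic sample 1 lay among them. The difference was 0.62 (SE 0.307, 95% interval -0.07 to 1.31, unadjusted p = 0.0716, adjusted p = 0.732 with limma), or 1.54-fold.

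Probiotic samples 2 and 3 were the highest on the other Ccnd1 probe sets too. On the dimmest of the 3 the levels were 10.11, 11.12 and 11.16 in the probiotic and 10.01, 9.81 and 10.35 in the high-fat samples. Its difference was 0.74 (SE 0.301, 95% interval 0.06 to 1.42, unadjusted p = 0.0352, adjusted p = 0.726). On the remaining one the difference was 0.45 (adjusted p = 0.798), and probiotic sample 1 was the lowest of all 6 at 9.74. The transcript of cyclin D1 was thus high in probiotic samples 2 and 3. Without probiotic sample 1 the differences in this order were 0.89, 1.09 and 0.91 (adjusted p of 0.411, 0.245 and 0.359). Without probiotic sample 3 they were 0.38, 0.56 and 0.06. Fitted with the Actb gap they were 0.15, 0.14 and 0.12.

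The other D-type cyclins did not share this difference in their means. Ccnd2 had log2 levels of 7.82, 8.92 and 8.96 in the probiotic and 8.85, 8.56 and 8.59 in the high-fat samples, with probiotic sample 1 again the lowest. Its difference was -0.10 (95% interval -0.84 to 0.64, adjusted p = 0.960), and it became 0.27 when probiotic sample 1 was left out. Ccnd3 had -0.26 (95% interval -0.84 to 0.31, adjusted p = 0.814). The intervals of Ccnd2 and Ccnd3 overlap those of the Ccnd1 probe sets, and the difference between the cyclins was not tested.

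The kinases that D-type and E-type cyclins activate had lower means in the probiotic group. Cdk4, the main partner of cyclin D1, had log2 levels of 10.37, 9.81 and 10.30 in the probiotic and 10.50, 10.95 and 10.52 in the high-fat samples. The groups did not overlap, by a narrow margin between probiotic sample 1 and high-fat sample 1. The difference was -0.50 (SE 0.228, 95% interval -1.01 to 0.02, adjusted p = 0.728), and it came to -0.32 when probiotic sample 2 was left out and to -0.02 when the Actb gap was fitted. Cdk2, the partner of cyclin E, differed by -0.39 on its brighter probe set, where the groups also did not overlap, and by -0.37 on the other (adjusted p of 0.749 and 0.829). Cdk6 was below the filter, at 4.99, 5.39 and 5.93 against 6.64, 6.76 and 5.12, a difference of -0.74.

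Among the inhibitors, p21 had the largest difference, and 1 sample was far above the rest. Cdkn1a, which stops the cycle after stress or DNA damage, had log2 levels on its brighter probe set of 10.11, 12.93 and 11.11 in the probiotic and 9.67, 10.21 and 9.89 in the high-fat samples. Probiotic sample 2 was far above the rest, with a deposited signal of 7875 against 790 to 2222 in the other 5 samples. Probiotic sample 3 also lay above every high-fat sample, and probiotic sample 1 lay below high-fat sample 2. The difference was 1.46 (SE 0.575, 95% interval 0.17 to 2.75, unadjusted p = 0.0309, adjusted p = 0.726), or 2.75-fold. Leaving out probiotic sample 2 gave 0.68, leaving out probiotic sample 1 gave 2.10 (adjusted p = 0.250 with limma), and fitting the Actb gap gave 0.06. The dimmer probe set gave 4.91, 9.03 and 7.19 against 6.06, 6.55 and 6.61, a difference of 0.64 that was -0.35 without probiotic sample 2 and -1.45 when the Actb gap was fitted. It too was highest in that sample and lowest in probiotic sample 1.

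Myc, a transcription factor that drives growth and cell cycle entry, had the widest spread among the G1 regulators. Its log2 levels were 9.04, 11.42 and 7.40 in the probiotic and 8.65, 7.09 and 7.65 in the high-fat samples. Probiotic sample 2 was again the highest, and probiotic sample 3 lay below 2 of the high-fat samples. The difference of 1.49 (SE 0.846, 95% interval -0.41 to 3.39, adjusted p = 0.737) became 0.42 when probiotic sample 2 was left out, 2.42 when probiotic sample 3 was, and -0.49 when the Actb gap was fitted.

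Beside these values, the mean deviation of the 11 immediate early genes was 3.28 log2 units in probiotic sample 2, where all 11 were highest, and -0.999 to -0.30 in the other 5 samples. For comparison, 19.8% of all genes were highest in that sample. Erythroid markers were also highest there for 5 of 6 genes, with a mean deviation of 0.97 against -0.36 to -0.01 elsewhere. On log2 of their summed deposited signal, the immediate early genes ranged from 12.8 to 16.3 in the probiotic and 12.5 to 13.1 in the high-fat samples, and the erythroid markers from 14.9 to 15.7 and 14.3 to 14.7. The part of either in the Cdkn1a and Myc values was not tested. Without Cdkn1a and Myc, the mean deviation of the G1 regulators in probiotic sample 2 was -0.01 in place of 0.36. Both genes stood far highest in that sample, so a fall was fixed in advance and is a description only.

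**Figure D2:**
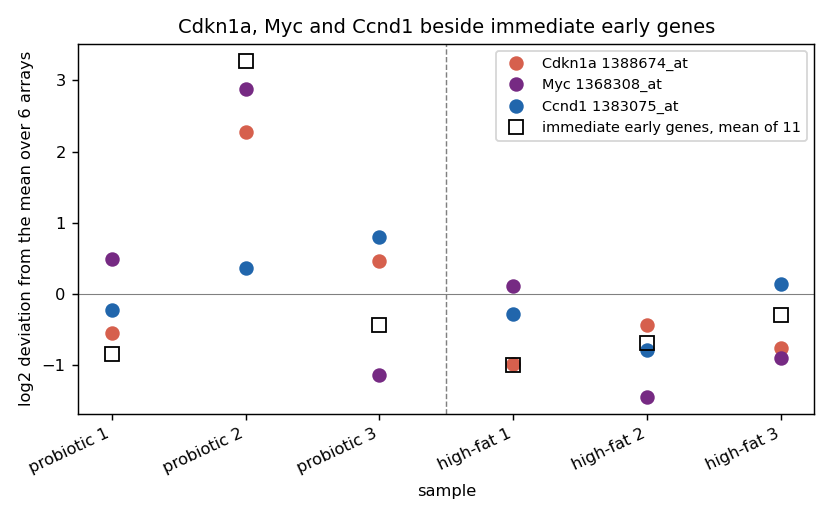
Log2 deviation from the mean over the 6 arrays for the brightest probe sets of Cdkn1a, Myc and Ccnd1 (filled circles) and for the mean of 11 immediate early genes (open squares), by sample. In probiotic 2, Cdkn1a, Myc and the immediate early genes stand above every other sample, while Ccnd1 is highest in probiotic 3.

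The other inhibitors gave smaller or divided values. Cdkn2c on its brighter probe set was at 7.04, 7.36 and 7.36 in the probiotic and 8.12, 7.62 and 8.27 in the high-fat samples, with no overlap. The difference was -0.75 (SE 0.299, 95% interval -1.42 to -0.08, unadjusted p = 0.0327, adjusted p = 0.726), or 1.68-fold less. It kept its sign with each sample left out, at -0.97 to -0.59. The dimmer Cdkn2c probe set, of a design class open to cross-hybridisation, gave 0.48 (adjusted p = 0.879), and -0.09 without high-fat sample 1. Cdkn1b on its brighter probe set had the narrowest interval of the 33 probe sets tested, with a difference of -0.08 (95% interval -0.48 to 0.31, adjusted p = 0.929).

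**Figure D3:**
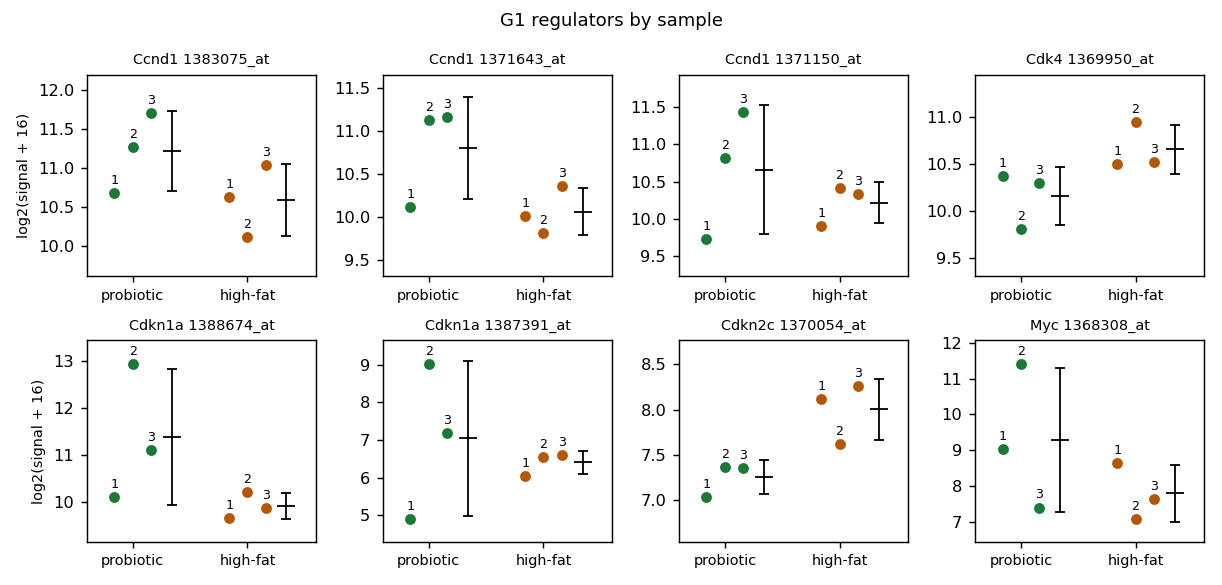
Log2(signal + 16) of 8 probe sets of G1 regulators in each sample (circles, numbered by sample), with the group mean and SD (n = 3) beside them. Cdkn1a is highest in probiotic sample 2 on both probe sets, as is Myc, and Cdk4 and the brighter Cdkn2c probe set show no overlap between groups.

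Rb1, the retinoblastoma gene itself, had log2 levels of 9.39, 8.79 and 8.42 in the probiotic and 9.05, 8.15 and 8.88 in the high-fat samples, with full overlap. Its difference was 0.17 (95% interval -0.57 to 0.91, adjusted p = 0.923). E2f1, the E2F factor that activates S phase genes, was below the filter, at 7.09, 6.05 and 7.02 in the probiotic and 4.90, 6.32 and 5.26 in the high-fat samples, a difference of 1.23 with overlap at sample 2 of each group. It was 2.26 when the Actb gap was fitted. Cyclin E had 2 genes on the array. Ccne1 differed by 0.49 with a wide interval of -1.10 to 2.08, and by -0.33 when high-fat sample 1, its lowest, was left out. Ccne2, below the filter on both probe sets, was on the brighter one at 5.85, 6.17 and 6.64 in the probiotic and 4.43, 4.54 and 4.63 in the high-fat samples. The groups did not overlap, but the deposited signals were 43.7 to 81.3 against 5.6 to 10.7, close to the floor. The difference of 1.69 was 2.89 with a pseudocount of 1 and 0.80 with 64, and the other Ccne2 probe set gave -0.32.

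The genes of DNA replication had 7 members above the filter, of which 5 had lower means in the probiotic group and Pcna and Tyms differed by 0.04 and 0.00. None of their 8 probe sets tested reached an unadjusted p of 0.05. The MCM proteins form a ring of 6 subunits, Mcm2 to Mcm7, that unwinds DNA at replication origins. Their promoters are textbook targets of E2F. Promoter sequence from RefSeq (assembly GRCr8) was on hand for 29 of the 38 members. The 250 bases before the start were searched on both strands for TTTNNCGC, the letters taken here for the E2F site. Of the 8 replication genes with a window, 5 held a match (62.5%), against 0 of 8 G1 regulators, 2 of 14 mitotic windows (14.3%) and 4.11% of all 33469 windows in the table. Over the windows of genes with 1 symbol on the array the share was 6.21%. The windows of the 4 MCM genes with a match are printed here, whichever way their own signal went. Capitals mark every match. They lie at chr4:122918095-122918344 on the minus strand (Mcm2), chr19:13488563-13488812 on the plus strand (Mcm5), chr12:22163179-22163428 on the minus strand (Mcm7) and chr13:42404353-42404602 on the minus strand (Mcm6).
Mcm2: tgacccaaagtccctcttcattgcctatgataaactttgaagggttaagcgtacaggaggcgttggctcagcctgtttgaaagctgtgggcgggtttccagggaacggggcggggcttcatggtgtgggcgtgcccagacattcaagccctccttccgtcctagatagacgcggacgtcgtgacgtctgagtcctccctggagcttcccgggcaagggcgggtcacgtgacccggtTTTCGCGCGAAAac
Mcm5: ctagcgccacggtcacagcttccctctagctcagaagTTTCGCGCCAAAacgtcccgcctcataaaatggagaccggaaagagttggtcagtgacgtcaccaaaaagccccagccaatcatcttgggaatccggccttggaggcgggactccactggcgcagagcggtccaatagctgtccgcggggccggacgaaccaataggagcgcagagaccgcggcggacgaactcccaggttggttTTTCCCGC
Mcm7: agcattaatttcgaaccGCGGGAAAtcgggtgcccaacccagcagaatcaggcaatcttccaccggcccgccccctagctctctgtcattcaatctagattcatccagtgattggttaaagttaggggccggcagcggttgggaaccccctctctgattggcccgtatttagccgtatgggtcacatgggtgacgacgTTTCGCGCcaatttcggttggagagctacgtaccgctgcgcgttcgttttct
Mcm6: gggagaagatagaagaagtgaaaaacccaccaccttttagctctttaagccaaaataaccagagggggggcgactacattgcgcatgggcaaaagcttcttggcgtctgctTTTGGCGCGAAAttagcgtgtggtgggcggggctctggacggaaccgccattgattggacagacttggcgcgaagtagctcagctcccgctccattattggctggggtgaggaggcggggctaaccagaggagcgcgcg
In Mcm2, Mcm5 and Mcm6 a match on the plus strand overlaps one on the minus strand. The overlapping capitals form a palindrome in Mcm2 and a near palindrome in Mcm5 and Mcm6. The window of Mcm3 held no match, and no window was on hand for Mcm4. A match is a description of the letters and not a measured binding site.

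The 4 MCM genes above the filter all had lower means in the probiotic group, and none passed the test. Mcm2 had log2 levels of 7.11, 6.86 and 6.94 in the probiotic and 7.40, 7.83 and 7.08 in the high-fat samples. High-fat sample 3 lay within the probiotic range, and the difference was -0.47 (SE 0.335, 95% interval -1.22 to 0.29, adjusted p = 0.766). Mcm5 was at 6.90, 6.99 and 7.06 against 7.58, 7.39 and 7.19, the only MCM gene with no overlap, and differed by -0.40 (adjusted p = 0.782). Mcm4 was at 7.06, 7.17 and 7.32 against 7.48, 7.23 and 8.07, a difference of -0.41 (adjusted p = 0.785). Mcm7 was at 8.17, 9.28 and 8.85 against 9.15, 9.25 and 9.26. Here the high-fat samples lay close together and probiotic sample 2 was the highest of all, so the difference of -0.45 (adjusted p = 0.749) became -0.70 without it, -0.16 without probiotic sample 1 and -1.01 when the Actb gap was fitted.

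The remaining subunits, Mcm3 and Mcm6, were below the filter and had higher means in the probiotic group. Mcm3 was at 5.03, 6.10 and 7.49 in the probiotic and 5.33, 4.66 and 6.56 in the high-fat samples, a difference of 0.69. It became 0.05 when probiotic sample 3 was left out, 1.28 when probiotic sample 1 was, and -0.09 when the Actb gap was fitted. Mcm6 was at 4.97, 6.01 and 7.53 against 6.60, 4.40 and 6.60, a difference of 0.30 that became -0.37 when probiotic sample 3 was left out and -0.41 when high-fat sample 2 was, and was -0.75 with the Actb gap fitted. The SD within groups was 1.24 and 0.960 for Mcm3 and 1.28 and 1.27 for Mcm6, and each was highest in probiotic sample 3. Subunits of the ring above the filter had lower means in the probiotic group, with none past the test. Those below it, Mcm3 and Mcm6, changed sign between settings and were too dim to show a direction.

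Pcna, the sliding clamp of the replicative polymerases, had the narrowest interval of the replication genes. Its log2 levels were 10.86, 11.18 and 10.49 in the probiotic and 10.72, 10.94 and 10.76 in the high-fat samples. The difference was 0.04 (SE 0.214, 95% interval -0.44 to 0.52, adjusted p = 0.976). The groups overlapped throughout, and an interval of this width does not show that they are alike.

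The enzymes that supply thymidine nucleotides were divided. Thymidine kinase (Tk1) on its brightest probe set was at 7.53, 7.64 and 8.31 in the probiotic and 8.28, 8.52 and 8.35 in the high-fat samples. Probiotic samples 1 and 2 lay below all high-fat samples, and probiotic sample 3 lay just above high-fat sample 1. The difference of -0.55 (SE 0.286, 95% interval -1.20 to 0.09, adjusted p = 0.735) stood beside -0.21 on the next probe set, which gave 0.02 when probiotic sample 2 was left out. Thymidylate synthase (Tyms) was at 6.98, 5.20 and 7.27 against 7.04, 5.39 and 7.03. Sample 2 of each group was low, and the difference was 0.00 (95% interval -1.54 to 1.54). It was -0.54 when high-fat sample 2 was left out.

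**Figure D4:**
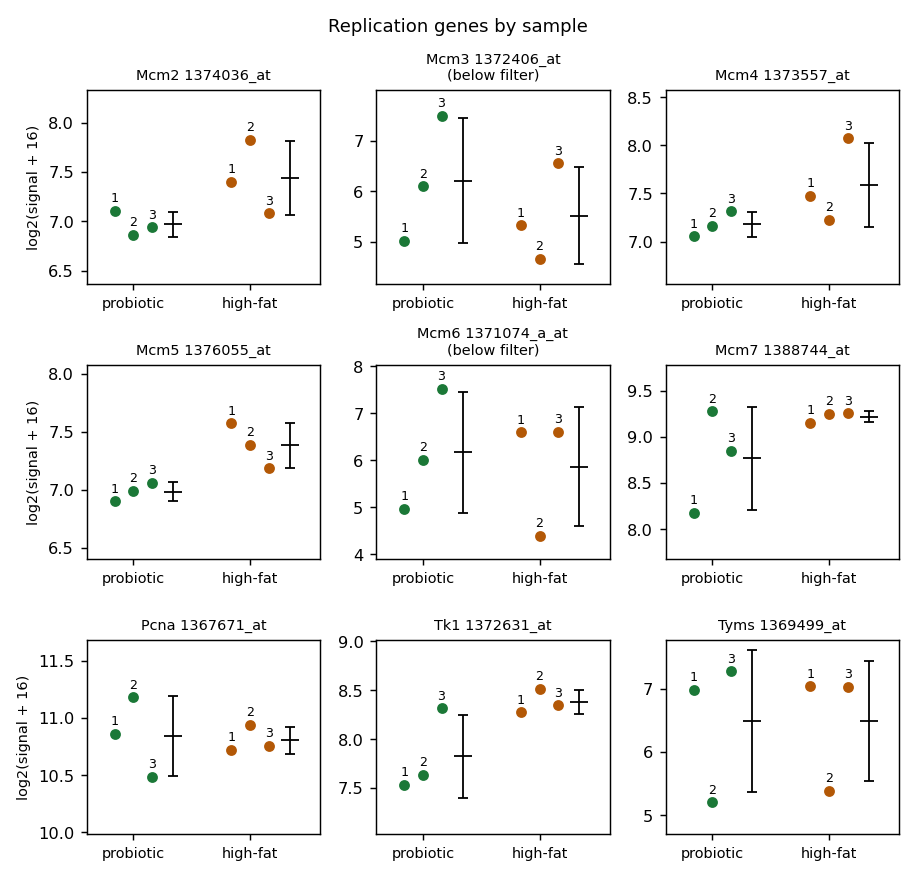
Log2(signal + 16) of the brightest probe set of the 9 replication genes in each sample (circles, numbered by sample), with the group mean and SD (n = 3) beside them. Mcm2, Mcm4, Mcm5 and Mcm7 have lower means in the probiotic group, and Mcm3 and Mcm6, below the filter, have higher ones.

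The mitotic genes mostly had dim signals. Of their 22 probe sets, 13 were below the filter, and the median SD within groups was 0.69 log2 units over the 22, against 0.32 over the 11 replication probe sets. Over the whole array the median was 0.36 above the filter and 0.71 below it. Mki67, the standard marker of proliferating cells, was below the filter at 6.81, 5.64 and 4.72 in the probiotic and 5.93, 5.90 and 6.17 in the high-fat samples. The difference of -0.28 moved to -0.82 when probiotic sample 1 was left out and to 0.23 when probiotic sample 3 was. With the Actb gap fitted it was 0.10.

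Mitotic genes are known for promoters with CCAAT boxes and a CHR, the cell cycle genes homology region. Of 14 windows of 13 mitotic genes, 9 held TTTGAA or TTCGAA, the letters of the CHR (64.3%), and 11 held CCAAT (78.6%), each on either strand. The shares over all windows in the table were 17.4% and 34%, and over the windows of genes with 1 symbol on the array 12.7% and 34.6%. They were 0% and 37.5% over the 8 G1 regulators and 25% and 62.5% over the 8 replication genes. A high share of CCAAT was thus not particular to the mitotic genes. The windows of Cdk1, the mitotic kinase, and of its cyclin Ccnb2 are printed because the kinase and the cyclin act as a pair and both windows hold both motifs, which are in capitals. They lie at chr20:19265043-19265292 on the plus strand and chr8:79981659-79981908 on the minus strand.
Cdk1: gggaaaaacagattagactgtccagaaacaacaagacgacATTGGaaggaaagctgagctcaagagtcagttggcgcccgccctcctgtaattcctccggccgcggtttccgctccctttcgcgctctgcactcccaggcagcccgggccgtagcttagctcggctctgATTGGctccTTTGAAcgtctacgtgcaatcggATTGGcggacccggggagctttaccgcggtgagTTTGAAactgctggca
Ccnb2: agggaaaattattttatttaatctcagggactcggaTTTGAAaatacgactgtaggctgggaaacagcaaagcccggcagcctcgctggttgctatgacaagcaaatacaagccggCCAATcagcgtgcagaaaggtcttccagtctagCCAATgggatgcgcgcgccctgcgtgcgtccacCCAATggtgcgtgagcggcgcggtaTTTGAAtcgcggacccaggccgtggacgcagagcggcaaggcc
Each window held 3 CCAAT and 2 CHR matches. Cdk1 also held 2 matches to the E2F letters, not capitalised here.

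Cdk1 itself was below the filter, at 4.29, 4.62 and 6.64 in the probiotic and 4.78, 6.29 and 6.64 in the high-fat samples, a difference of -0.72 with overlap. Ccnb2 was above it, at 6.76, 5.62 and 7.61 against 6.61, 7.51 and 7.32, a difference of -0.48 (95% interval -1.69 to 0.72, adjusted p = 0.844). That difference was 0.04 when probiotic sample 2 was left out, -0.96 when probiotic sample 3 was, and 0.48 with the Actb gap fitted. For cyclin B1 (Ccnb1) the probe sets disagreed. The brighter gave 7.45, 6.26 and 7.83 against 6.23, 6.55 and 7.06, a difference of 0.57 (adjusted p = 0.796), and the dimmer one gave -0.68 (adjusted p = 0.790). With the Actb gap fitted they gave 1.28 and 0.08. Cyclin A2 (Ccna2), below the filter, differed by 0.48.

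The mitotic kinases went opposite ways at low signal. Plk1, which drives spindle formation and exit from mitosis, was at 5.03, 5.56 and 5.15 in the probiotic and 5.69, 7.69 and 6.62 in the high-fat samples. The groups did not overlap, and high-fat sample 2 was the highest by more than 1 log2 unit. The difference of -1.42 was -0.90 without that sample. Aurkb, the kinase of the chromosomal passenger complex, was at 6.43, 6.49 and 6.84 against 5.35, 4.85 and 6.29, also with no overlap, and differed by 1.09. Aurka, which acts at spindle poles, was above the filter and differed by -0.33 (adjusted p = 0.886).

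Spindle checkpoint genes gave no common direction. Bub1, a checkpoint kinase, was at 6.21, 4.22 and 5.19 in the probiotic and 5.76, 6.33 and 6.38 in the high-fat samples, a difference of -0.95 that was -0.45 without probiotic sample 2 and 0.18 when the Actb gap was fitted. Its relative Bub1b was at 4.34 to 4.89 in all 6 samples, near the floor. Cdc20, the activator of the anaphase-promoting complex, had 5 probe sets, of which 2 passed the filter with differences of 0.24 and 0.10 (adjusted p of 0.899 and 0.963). The other 3 ranged from -0.48 to 1.08. The motor Kif11 differed by -0.10, the passenger protein survivin (Birc5) by 0.14 and topoisomerase II alpha (Top2a) by 0.52, with adjusted p of 0.966, 0.972 and 0.886. Leaving out high-fat sample 1 turned Top2a to -0.45, and leaving out high-fat sample 2 turned Birc5 to -0.70 and the brightest Cdc20 probe set to -0.01.

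**Figure D5:**
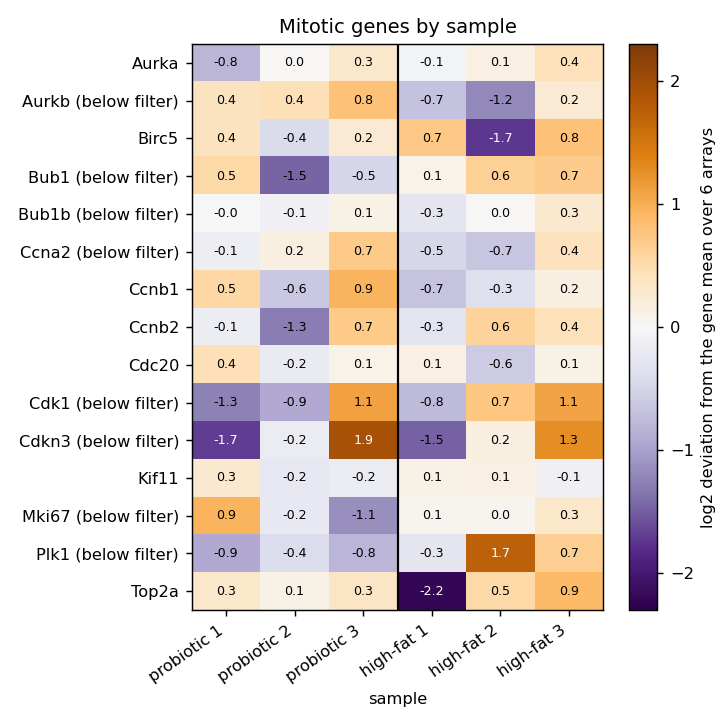
Log2 deviation of each mitotic gene (brightest probe set) from its own mean over the 6 arrays, by sample; a vertical line separates the probiotic from the high-fat samples. Cdk1 and Cdkn3 are high in probiotic 3 and high-fat 3 and low in probiotic 1 and high-fat 1.

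Some S phase and mitotic members differed more between samples of a group than between groups. Cdkn3, a phosphatase that acts on cyclin-dependent kinases, was at 4.27, 5.79 and 7.91 in the probiotic and 4.48, 6.12 and 7.24 in the high-fat samples, a range of over 3 log2 units at a group difference of 0.04. The mean deviation of the 15 mitotic genes was 0.31 in probiotic sample 3 and 0.51 in high-fat sample 3, and -0.40 to 0.01 in the other 4 samples. Without normalization between arrays it was 0.26 and 0.20 in those samples and 0.30 in high-fat sample 2, which then stood highest of the 6. Probiotic sample 3 and high-fat sample 3 were picked from these same values, so the counts below describe and do not test. After the values were seen, members with their highest 2 arrays in these 2 samples were counted. They were 7 of 24 replication and mitotic genes (29.2%), namely Aurka, Bub1b, Ccna2, Cdk1, Cdkn3, Mcm3 and Mcm6, against 5.92% of all genes. Without normalization between arrays they were 2 of 24 (8.33%), against 4.71% of all genes, and with median centring they were again 7, against 15.5%. Of the 7 only Aurka was above the filter. The same sample number does not mark a shared rat or batch in the labels.

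Other cell cycle genes, from a list of 85 beyond the members, gave a like picture. Of the 75 on the array with 1 symbol, 51 were above the filter, 35 were higher and 40 lower in the probiotic group, and the median difference was -0.03. At an unadjusted p under 0.05, 0 of the 51 were higher, against 2.99% of all probe sets tested, and 3 of the 51 were lower, against 3.86%. None of the 51 passed the adjusted test.

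The 3 lower genes all act with the members described. Cks1b, a small subunit bound to cyclin-dependent kinases, had log2 levels of 10.48, 10.24 and 10.46 in the probiotic and 10.85, 11.20 and 11.07 in the high-fat samples, with no overlap and a difference of -0.64 (SE 0.186, adjusted p = 0.726). Cdk7, the kinase that activates other cyclin-dependent kinases, was at 9.80, 9.47 and 9.74 against 10.10, 10.70 and 10.17, a difference of -0.65 (adjusted p = 0.726). Tfdp1, the partner with which E2F binds DNA, was at 10.01, 9.81 and 9.74 against 10.34, 10.22 and 10.27, a difference of -0.42 (adjusted p = 0.728). In each of the 3 the groups did not overlap, against 6.7% of all probe sets tested in this direction and 6.02% in the other. The 3 were picked by smallest p on these same values, so their count cannot be set against those shares. Of all 75 genes, dim ones included, the groups did not overlap for 6 lower and 4 higher. Among all probe sets other than controls the shares were 6.03% lower and 5.55% higher.

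The higher genes of smallest p were Cdc25b, a phosphatase that activates CDK1 (1.41), Fbxw7, which targets cyclin E for breakdown (1.16), and Rfc1, which loads Pcna (0.39), with adjusted p of 0.728, 0.740 and 0.740. Cdc25b was highest in probiotic sample 2, at 8.10 against 4.73 to 7.11 in the other 5 samples. Fbxw7 was highest in high-fat sample 3, at 8.17, and by far the lowest in high-fat sample 2, at 5.06.

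Markers of other cells found in a liver were set beside the members. Of 8 lymphocyte markers measured, 4 were higher and 4 lower, with mean deviations of -0.36 to 0.19 in the probiotic and -0.27 to 0.22 in the high-fat samples, and 3 were below the filter. Of 10 Kupffer cell and macrophage markers, 10 were lower, with mean deviations of -0.32 to -0.02 and 0.06 to 0.38. Of 5 cholangiocyte and progenitor markers, 4 were higher, with -0.33 to 0.24 and -0.14 to 0.06. Neutrophil markers were lower for 3 of 3, with -0.90 to -0.02 and 0.23 to 0.72. The log2 of the summed signal ranged from 9.18 to 9.84 and 9.61 to 9.79 for lymphocytes, from 14.0 to 14.3 and 14.2 to 14.6 for macrophages, from 11.3 to 11.6 and 11.2 to 11.6 for cholangiocytes and from 8.10 to 8.92 and 9.30 to 10.1 for neutrophils, probiotic and then high-fat. Endothelial markers were higher for 3 of 5 and stellate cell markers for 1 of 6. Their part in the values of the cell cycle genes was not tested.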

How the data were processed

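Total liver RNA, 8 ug a sample, was labelled and read on 1-colour Affymetrix arrays. The intensity values were deposited by the authors on a linear scale, 1 for each probe set, by software not given in the sources used here. On each array they had a mean of 500.3 once 2% was trimmed from either end. The 57 controls were not tested. The platform annotation gave 20832 probe sets 1 symbol, of which 20764 matched the RefSeq gene table by gene ID, with 0 symbols changed.

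The deposited intensity was taken as log2(intensity + 16) and quantile normalized. Such folds understate changes of dim probe sets. The test was limma 3.58.1 in R 4.3.3 (lmFit, eBayes with trend, two-sided), and p-values were adjusted by Benjamini-Hochberg across the 18625 probe sets at or above the 40th percentile of mean signal. A gene stands for its brightest probe set unless another is named. The rule for genes given sample by sample took members at an unadjusted p under 0.05, the 2 of largest difference per role and direction, and Mki67, Pcna, Ccnd1, Cdkn1a, Myc and Rb1. Others given so (Ccnd2, Cdk4, E2f1, Mcm4, Mcm5, Mcm7, Tyms, Cdk1, Ccnb2, Cdkn3) were added after their values were seen. Of the other cell cycle genes, the 3 of smallest p per direction are named. Members, roles and lists were chosen with earlier results of these data known. Scripts were tested on simulated data. Alternatives were median centring, no normalization, pseudocounts 1 and 64, no filter, no trend, array weights, a replicate block, the Actb gap as a covariate, other probe sets and samples left out. Figures used matplotlib 3.10.9.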

Additional observations from a re-analysis of the deposited data

How the results depend on the processing

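No member probe set passed the adjusted threshold under any of the 16 other settings run. Of the 33 member probe sets tested, 17 kept their sign under all of them and 16 did not. The count of members at an unadjusted p under 0.05 was 3, and it was 5 without the signal filter, 1 without the intensity trend and 0 to 6 with 1 sample left out. For all probe sets the adjusted count was 4, with 7 when both sample 2 arrays were left out and 3 to 12 with 1 sample left out. The unadjusted count was 1275, with 1989 without the filter, 423 with the Actb gap as a covariate, 709 without both sample 2 arrays and 805 to 1787 with 1 sample left out. Samples with the same number were weakly correlated in their deviations (0.144, 0.027 and 0.0774). Between unlike numbers the correlations ran from -0.141 to 0.0674, and pairing was not tested. With the replicate block the adjusted count stayed at 4, the unadjusted count was 1527, and 4 members had an unadjusted p under 0.05. Among the members described, directions turned for Myc with the covariate (-0.490), for Rb1 with array weights (-0.104), without both sample 2 arrays (-0.0640), and without 1 sample (lowest -0.103, highest 0.391), for Pcna with array weights (-0.0657), the covariate (-0.132), without both sample 2 arrays (-0.0615) and without 1 sample (lowest -0.130, highest 0.215), and on other probe sets of Cdkn2c (0.480), Ccnb1 (-0.682) and Tk1 (0.0878). They also turned for Bub1 (0.185), Mcm3 (-0.0882), Mcm6 (-0.749), Mki67 (0.0951) and Ccnb2 (0.483) with the covariate, for Mcm6 (-0.314) and Ccnb2 (0.226) without both sample 2 arrays, and, beside these, for members given with 1 sample left out in the text. Cdkn3 turned with the covariate too (-0.331), and Ccnd2 with array weights (0.00635). The list is not complete. The cause was not tested. With 3 arrays per group and most mitotic genes below the filter, small changes could not have been detected.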
